A study of Mus musculus with 6 samples.

Results

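The 83 genes described here encode the pore-forming and accessory subunits of potassium channels and the hyperpolarisation-activated cation channels (HCN). They were chosen by name: every row of the deposited table whose mouse symbol was Kcn followed by letters and a number, or Hcn and a number, and whose mean over the 6 libraries was at least 10 normalised counts. Of 96 such genes in the table, 83 reached that mean, within 17391 genes that did so among 78298 rows. The study measured polyadenylated RNA in the left brain of male mice and compared wild type with mice homozygous for a Top2b-low allele, with 3 libraries each, to ask what a lower level of this DNA topoisomerase does in the adult brain. The allele carries an auxin-inducible degron tag, placed by CRISPR/Cas9 at the 5′ end of the coding sequence. No compound was given to either genotype, and no other allele or driver is named, nor is the number of founder lines. The age is 10 weeks in the labels and 3.5 months in the series text. Replicate 3 of each genotype has a library name that begins with N22 (N22.L1.1.WT and N22.R1.2.dNdN), while the other 4 names do not. What N22 or dNdN stands for is not given in the sources used here.

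Potassium channels let potassium leave the cell down its gradient, which repolarises the membrane after a spike and sets the resting potential. The voltage-gated, calcium-activated, inwardly rectifying and leak families differ in what opens them. HCN channels open on hyperpolarisation, pass sodium and potassium, and carry the pacemaker and dendritic current called Ih. In the brain most of these genes work in neurons, some in astrocytes, blood vessels or the choroid plexus.

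The short coding stretch that carries the selectivity filter is shown for some of the members on which the results turn, of several pore types, because it is the feature that the pore families share. Each line gives 30 bases of the GENCODE vM21 transcript with the longest coding sequence, sense strand, 5′ to 3′. Capitals mark 3 in-frame codons that read GGNTANGGN (glycine, tyrosine, glycine), or, for the Kcnh genes, GGNTTCGGN or GGNTTTGGN (glycine, phenylalanine, glycine).
Hcn3: atgctatgcattGGCTATGGGcagcaggca
Hcn4: atgctgtgcattGGGTATGGAcggcaggca
Kcnc1: atgacgacactgGGCTATGGAgacatgtat
Kcng4: atgacgaccgtgGGCTATGGGgacatggtc
Kcna2: atgacaactgtaGGCTATGGAgacatggtt
Kcnd2: atgacaacactgGGGTATGGCgacatggta
Kcnk3: atcaccaccatcGGCTATGGTcatgcggcg
Kcnh3: ctcaccagtgtgGGCTTCGGCaacgtgtcc
Kcnh4: ctcaccagtgtaGGCTTCGGCaacgtgtgt

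The tyrosine form was found in frame in 56 of the 83 genes (67.5%) and in 1028 of 14501 protein-coding genes tested (7.09%). Every member of the Kcna, Kcnd, Kcng, Kcnn and Kcns subfamilies held it, and so did Hcn3, Hcn4 and Kcnc1. The 15 members with only the phenylalanine form included 7 of the 8 Kcnh genes, both sodium-activated Kcnt genes, Kcnj8 and Kcnj11. Kcnh4 held the phenylalanine form at codon 441, shown above, and the tyrosine form at codon 54. The 12 members with neither form were Kcnab1 to Kcnab3, Kcnip1 to Kcnip4, Kcne2, Kcne4, Kcnmb1, Kcnmb2 and Kcnmb4, all of them accessory subunits without a pore loop of their own. How the authors' counting assigned reads shared between similar genes is not given in the sources used here.

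Library totals ran from 16963067 to 17413959 reads in the 4 libraries without the N22 name and were 28629911 and 35246703 in the N22-named pair. The limit that a count of 0 allows, 3 reads, equalled 1.77 to 3.76 normalised counts, which covers counting error only. Top2b itself stood at 3160.4, 3014 and 2485 normalised counts in wild type and at 2152, 2314 and 1965 in Top2b-low, with every Top2b-low library below every wild-type library (limma log2 difference -0.42, SE 0.11, unadjusted p = 0.00629, adjusted p = 0.99997). The listed tissue markers gave summed levels of 79259 to 92740 for 4 pan-neuronal genes in all libraries. Markers of the cerebellum and hindbrain were far lower in the N22-named pair. The summed level of 8 granule cell genes was 4646 and 5472 there against 24163 to 29620 in the other 4, with all 8 called lower, and Gabra6, a receptor subunit that defines granule cells, stood at 0.711 and 0.592 against 2348, 2020.3, 2073 and 2033. The summed level of 6 Purkinje cell genes was 17262 and 20284 against 39768 to 48377, with all 6 called lower, and that of 7 hindbrain genes was 97.0 and 148 against 617 to 1510, with Hoxa5, Hoxb5, Hoxc4 and Hoxb8 among those at 0 in an N22-named library. The summed level of 5 striatal genes was higher, at 12010 and 13287 in the pair against 9462 to 11022, with 3 of 5 called higher. That of 6 excitatory genes of cortex and hippocampus was 26102 and 30112 against 22561 to 26529, with 3 called higher and 1 lower. The N22-named wild-type sum of this last list lay inside the range of the other 4. The labels name one tissue for all 6 libraries. The library name is described here before the genotype.

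The 83 genes covered a wide range of levels. The lowest mean over the 6 libraries was 10.5 normalised counts for Kcnq1, a subunit best known from heart and epithelia, while 70 genes were at 100 or more and 35 at 1000 or more. Per kb of the longest annotated transcript, a scale on which genes can be compared, the accessory subunit Kcnab2 was highest at 2214. The astrocyte inward rectifier Kcnj10 was at 1151 and Hcn2 at 937. The highest per kb in other subfamilies with 3 or more members were Kcnip2 at 935, Kcnk1 at 839.5, Kcna2 at 733, Kcnmb4 at 563, Kcnd2 at 530.1, Kcnh3 at 459, Kcnn3 at 264, Kcng4 at 175 and Kcns2 at 119. Below Hcn2 on this scale stood Hcn3 (78.4) and Hcn4 (46.7). Just inside the minimum were Kcnq1, Kcnh8 at 21.7 and Kcnk5 at 25.3, and just outside were Kcnk15 at 3.79, Kcnn4 at 2.92 and Kcne3 at 2.79. The span of Kcnq1 overlaps that of the antisense gene Kcnq1ot1, whose mean was 505. The use of strand in counting is not given and overlap of exons was not checked. Whether the Kcnq1 reads include some of Kcnq1ot1 is therefore not known.

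**Figure D1:**
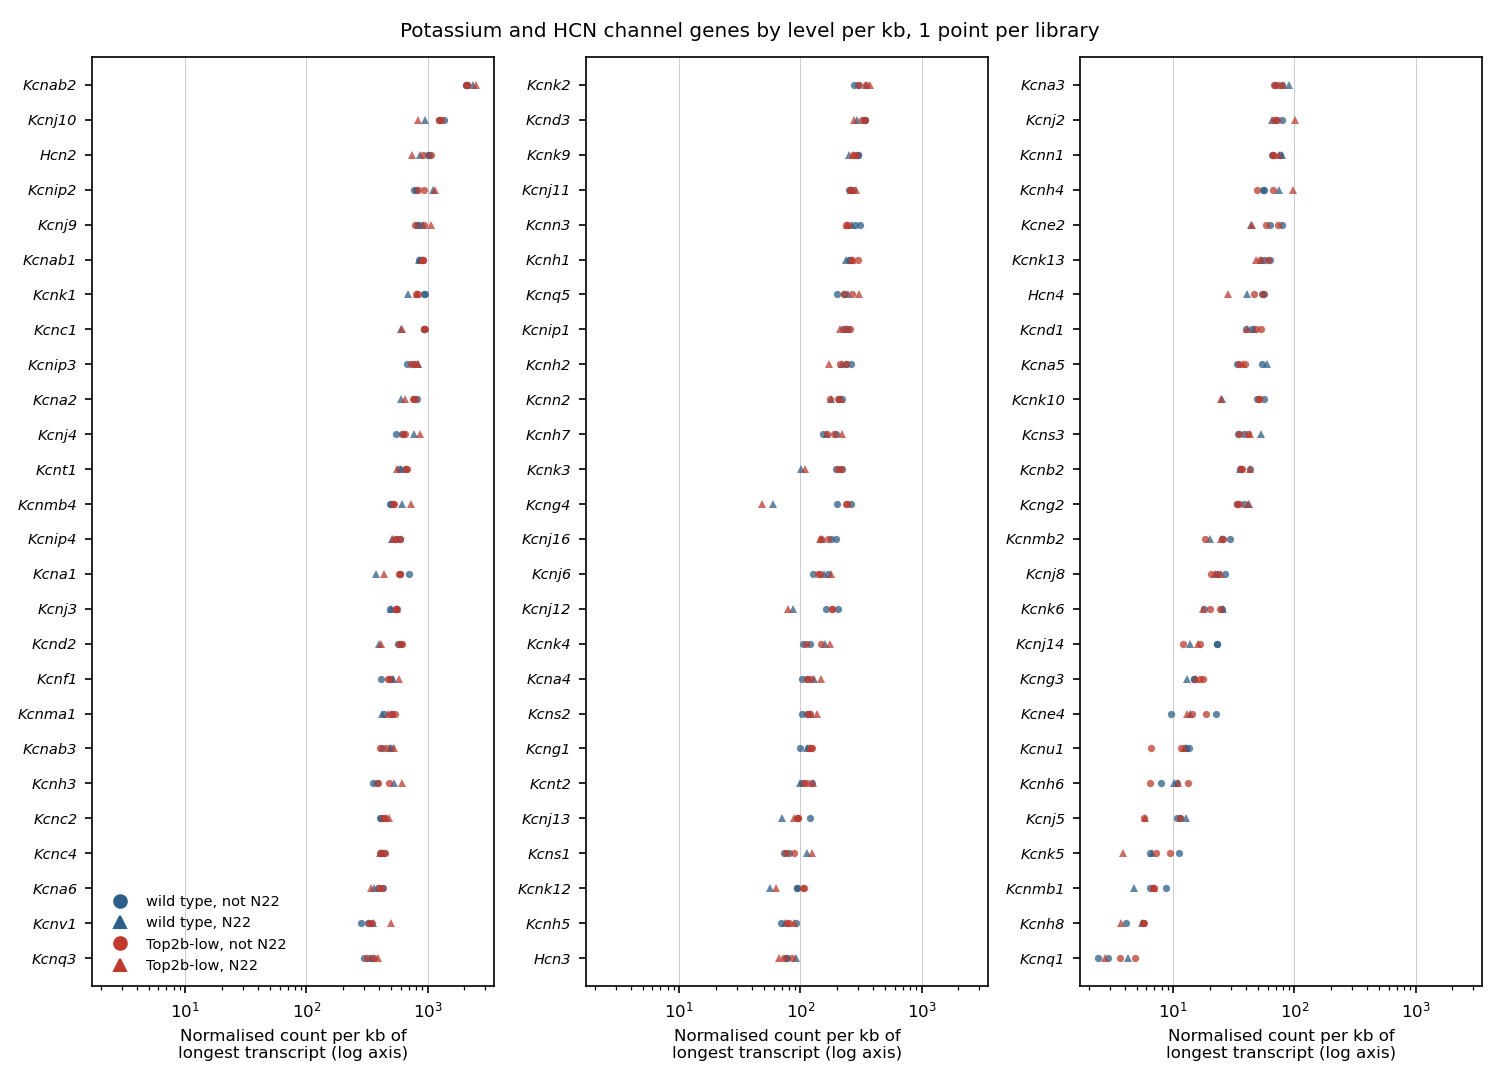
Level of the channel genes in each of the 6 libraries, as normalised count per kb of the longest annotated transcript on a log axis, ordered by mean. Circles are libraries without the N22 name, triangles the N22-named pair, blue is wild type and red Top2b-low. The triangles of Kcng4, Kcnk3 and Kcnj12 lie left of their circles.

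Channel genes differed between the N22-named pair and the other 4 libraries in both directions. With limma and genotype in the model, 29 of 83 passed an adjusted p of 0.05 (34.9%), against 28% of all genes tested. Of these, 11 were higher in the N22-named pair (13.3%, against 11.3% of all genes) and 18 were lower (21.7%, against 16.7%). Both N22-named libraries lay outside the range of the other 4 for 38 members (45.8%), against 49.3% of all genes: 18 were above it (all genes 22.8%) and 20 below (all genes 26.5%). The median log2 difference was -0.038 over the members and -0.0046 over all genes, and the median size was 0.22 in both. A difference of more than 2-fold was found for 5 members (6.02%, against 4.46% of all genes), and those 5 were lower in the N22-named pair. Leaving out the N22-named Top2b-low library left 3 higher and 13 lower of the 83 (19.3%, against 9.84% of all genes in that fit), with 15 of the 29 calls kept. Leaving out the N22-named wild-type library left 8 higher and 12 lower (24.1%, against 11.2%), with 19 kept. Quantile normalisation gave 18 higher and 15 lower (39.8%, against 27.7%), with 26 of the 29 kept. Below, a gene is written as called by the limma fit on all 6 libraries unless another is named. A fit without either N22-named library rests on the other N22-named library alone, and fewer of all genes are called in it. A call lost in such a fit does not by itself show that a gene is less steady than others. The N22-named libraries were also the deepest. The sums of the cerebellar and hindbrain marker lists given above were lower in them and the striatal sum was higher. The excitatory sum overlapped the other 4. The part of depth and of tissue makeup in these differences was not tested, and in bulk RNA fewer cells of a type and less RNA per cell cannot be told apart.

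**Figure D2:**
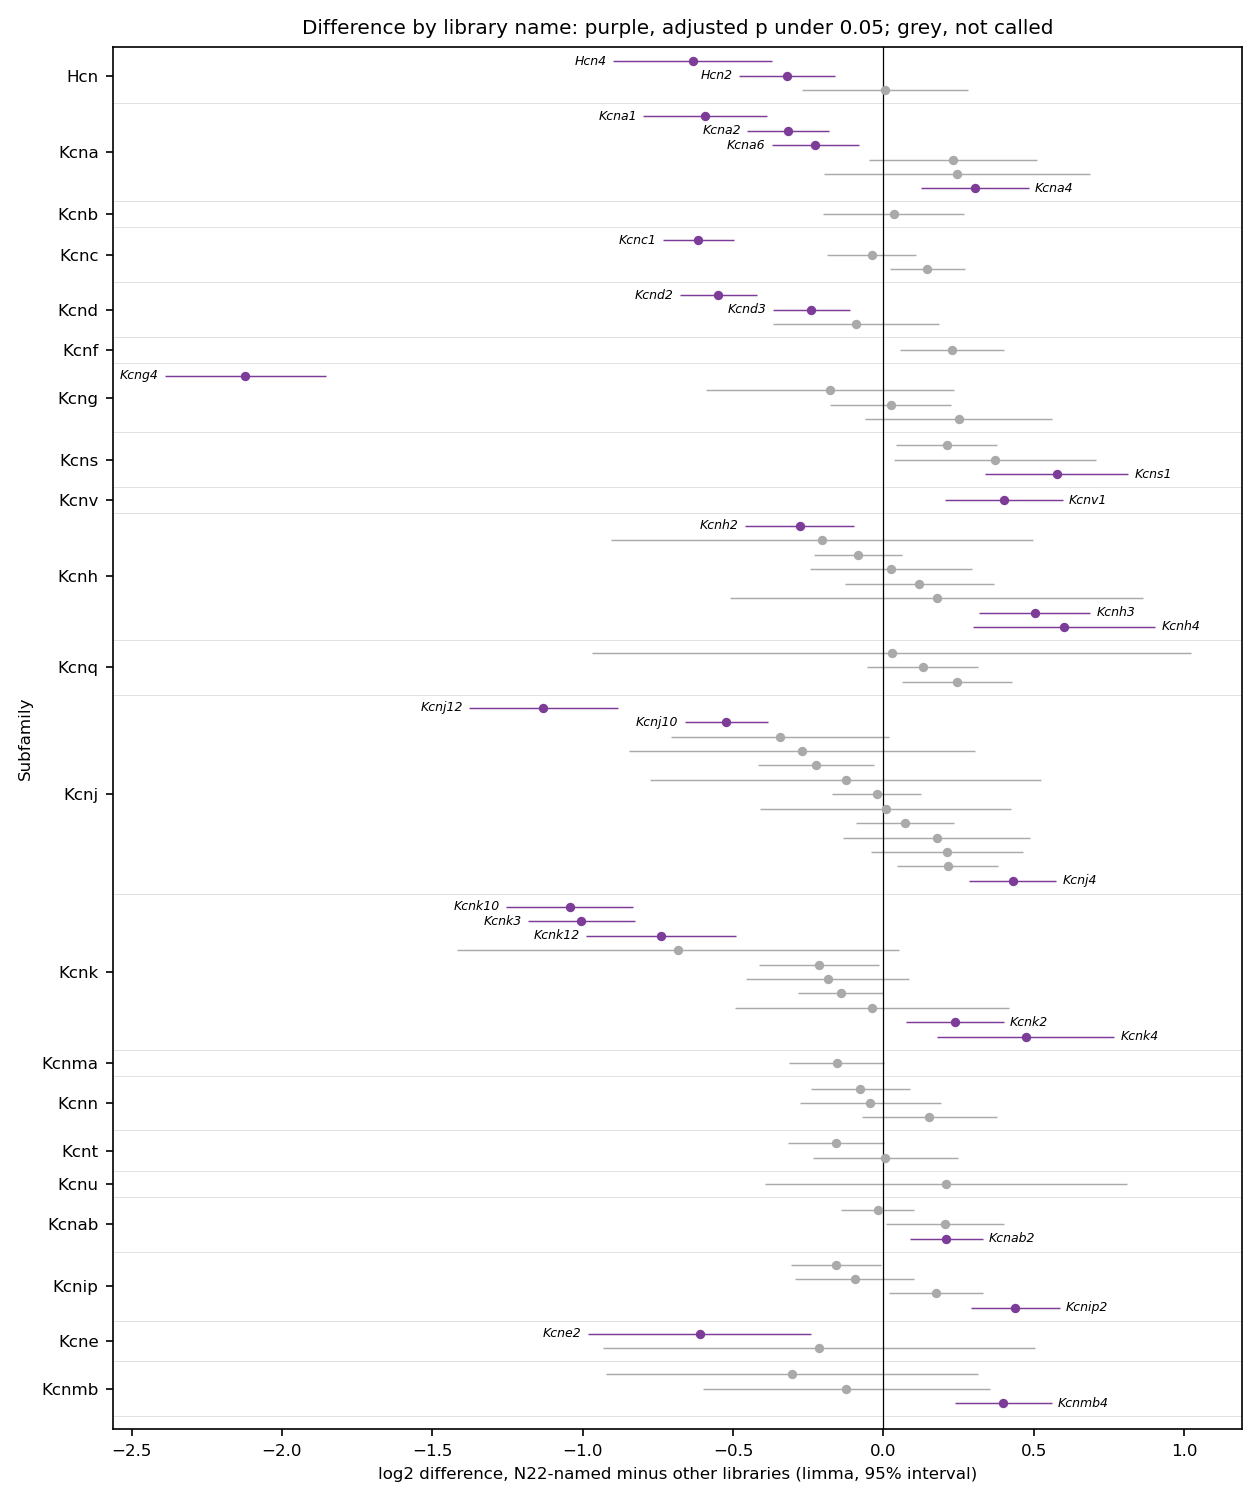
Log2 difference of the channel genes, N22-named pair minus the other 4 libraries, grouped by subfamily, with the 95% interval of limma as a line. Purple genes passed an adjusted p of 0.05 and are named, and Kcng4 at -2.12 stands farthest from 0.

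In the HCN family, Hcn2 and Hcn4 were lower in the N22-named pair and Hcn3 was not called. Hcn2, a subunit found widely in the brain, stood at 3259, 3227, 2943 and 3394 normalised counts in wild type 1, wild type 2, Top2b-low 1 and Top2b-low 2 and at 2752 and 2386 in the N22-named wild-type and Top2b-low libraries, an order kept in the sentences on library names below. Both N22-named values were below the other 4 (log2 difference -0.32, SE 0.072, adjusted p = 0.00905). Hcn4, the main pacemaker subunit of the heart and also found in thalamic neurons, stood at 345, 329.6, 336 and 284 and at 247 and 174 (log2 difference -0.63, SE 0.12, adjusted p = 0.00391). The N22-named values of Hcn4 were both below the other 4, but they also differed from each other by more than the other 4 did. Hcn3 stood at 312, 302, 341 and 295 and at 366 and 267, on either side of the others (log2 difference 0.0043, 95% interval -0.27 to 0.28, not called), and its direction flipped in 4 of the 6 fits that left out 1 library. The calls of Hcn2 (adjusted p = 0.165) and Hcn4 (adjusted p = 0.101) were lost in limma without the N22-named Top2b-low library.

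Among the classical voltage-gated genes, 3 of 6 Kcna genes and 2 of 3 Kcnd genes were lower in the N22-named pair, and 1 Kcna gene was higher. Their summed counts in the pair were 81.0% (Kcna) and 76.3% (Kcnd) of those in the other 4. Kcnc1, a channel that lets neurons fire at high rates, stood at 7201, 7209, 7186 and 7370.0 in the 4 and at 4642 and 4812 in the pair (log2 difference -0.62, SE 0.053, adjusted p = 4.29e-05). The groups were far apart and each was tight. Kcnc2 and Kcnc4 were not called, except Kcnc2 with quantile normalisation (adjusted p = 0.0197), with log2 differences of 0.15 for Kcnc2 (95% interval 0.021 to 0.27) and -0.038 for Kcnc4 (-0.19 to 0.11).

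Kcna1 and Kcna2 encode axonal channels that hold back repetitive firing. Kcna1 stood at 2372, 2814, 2344 and 2393 and at 1511 and 1778 (log2 difference -0.59, SE 0.092, adjusted p = 0.00148). Kcna2, the highest Kcna gene per kb, stood at 9003, 9439.8, 8757 and 9141 and at 6984 and 7605 (log2 difference -0.32, SE 0.061, adjusted p = 0.00445), and its call was lost without the N22-named wild-type library (adjusted p = 0.097). For both genes the N22-named values were below the other 4. Kcna4, a subunit of fast-inactivating A-type channels, went the other way, at 494, 539, 589 and 539 and at 621 and 715 (log2 difference 0.30, SE 0.081, adjusted p = 0.0194). Its call was lost in limma without either N22-named library (adjusted p = 0.199 without Top2b-low, 0.104 without wild type) and without wild type 1 (0.0573). Of the Kcnd genes, which carry the dendritic A-type current, Kcnd2 stood at 3106, 2945, 3012 and 3150.3 and at 2066 and 2107, with no overlap (log2 difference -0.55, SE 0.058, adjusted p = 0.000152). Kcnd3 was lower by a smaller amount, with a log2 difference of -0.24 (SE 0.058, adjusted p = 0.0127), and so was Kcna6, with -0.23 (SE 0.066, adjusted p = 0.0278). Both calls were lost in limma without the N22-named Top2b-low library (adjusted p = 0.131 for Kcnd3 and 0.258 for Kcna6), without the N22-named wild-type library (0.0889 and 0.103) and with quantile normalisation (0.0582 and 0.128), and that of Kcna6 also without wild type 1 (0.0857), without Top2b-low 2 (0.0516) and without the minimum mean (0.0685). The delayed rectifier Kcnb2 (0.034, 95% interval -0.20 to 0.27) was not called.

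The silent subunits Kcnf, Kcng, Kcns and Kcnv form no channel alone and modify Kcnb channels when they join them. Kcng4 (ENSMUSG00000045246, chromosome 8) showed the largest log2 difference of all 83 genes. It stood at 998, 758, 904 and 920.2 in the 4 libraries and at 227 and 183 in the pair, which is 22.9% of the mean of the 4 (log2 difference -2.12, SE 0.12, adjusted p = 2.5e-06). No other Kcng gene was called: Kcng1 stood at 404, 474, 502 and 511 and at 465 and 493, and its log2 difference was 0.025 (95% interval -0.18 to 0.23). Kcng4 made up 54.6 to 64.5% of the summed Kcng count, in which longer transcripts weigh more, in the 4 libraries and 21.7 to 26.5% in the pair, and Kcng1 26.1 to 34.1% and 54.4 to 58.4%. Kcns1 was higher in the pair, at 199, 218, 207 and 239 and at 305 and 338 (log2 difference 0.58, SE 0.11, adjusted p = 0.00371), and Kcnv1 likewise, at 1229, 1414, 1436 and 1516 and at 1550.4 and 2184 (log2 difference 0.40, SE 0.088, adjusted p = 0.0086). The N22-named values of both lay above the other 4, that of Kcnv1 in wild type only just. Both calls were lost without the N22-named Top2b-low library (adjusted p = 0.0698 for Kcns1 and 0.203 for Kcnv1). Kcns2, the highest Kcns gene per kb, stood at 561, 620.4, 630.0 and 649 and at 669.9 and 754 and was not called with limma (adjusted p = 0.0644), though edgeR called it (adjusted p = 0.0337).

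**Figure D3:**
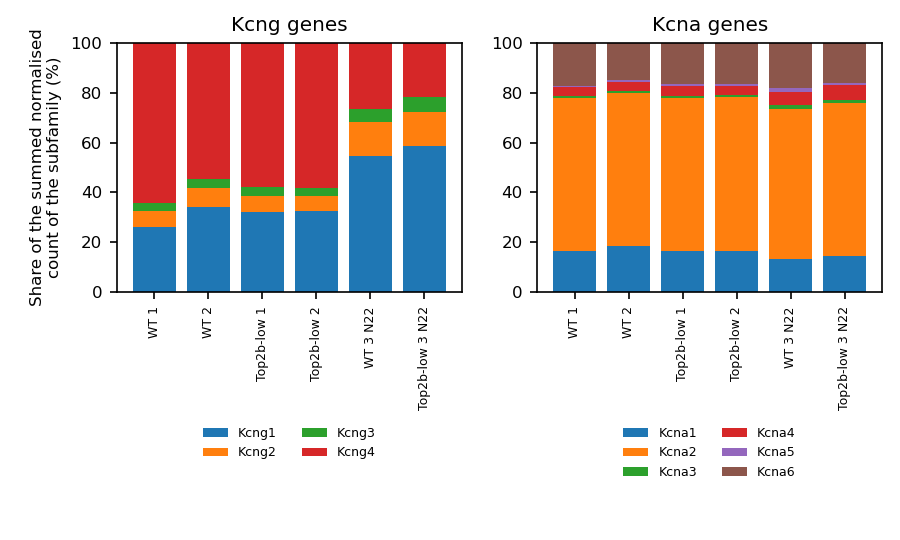
Share of each gene, in percent, in the summed normalised count of the Kcng and Kcna subfamilies, 1 bar per library, with the N22-named pair at the right of each panel. Kcng4 takes 21.7 to 26.5% in the pair against 54.6 to 64.5% in the other 4, and Kcna1 13.1 to 14.4% against 16.2 to 18.3%.

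Among the 8 Kcnh genes, of the ether-a-go-go family, Kcnh3 and Kcnh4 were higher in the N22-named pair, Kcnh2 was lower and the other 5 were not called. Their log2 differences were -0.085 for Kcnh1, 0.025 for Kcnh5, 0.18 for Kcnh6, 0.12 for Kcnh7 and -0.20 for Kcnh8, so the elk-type genes (Kcnh3, Kcnh4 and Kcnh8) and the erg-type genes (Kcnh2, Kcnh6 and Kcnh7) each held both signs. Kcnh4 stood at 222, 216, 196 and 265 and at 297 and 388 (log2 difference 0.60, SE 0.14, adjusted p = 0.00954), and Kcnh3 at 1318, 1421, 1453 and 1778 and at 1959 and 2255 (log2 difference 0.50, SE 0.083, adjusted p = 0.00202). Within the pair, the Top2b-low library held the higher value of both. Without it the call of Kcnh4 was lost (adjusted p = 0.188). Kcnh2, the gene of the cardiac repolarising current, had a log2 difference of -0.28 (SE 0.082, adjusted p = 0.029), with the N22-named values 923 and 731 partly inside the range of the others, 1094, 995, 1003 and 902. The call of Kcnh2 was lost in limma without the N22-named Top2b-low library (log2 difference -0.18, adjusted p = 0.349), without the N22-named wild-type library (0.0618), without wild type 1 (0.0787) or Top2b-low 1 (0.0612), with quantile normalisation (0.069) and without the minimum mean (0.0707). Of the Kcnq genes, which carry the neuronal M-current, Kcnq3 had a log2 difference of 0.13 (95% interval -0.054 to 0.32) and Kcnq5 one of 0.24 (0.061 to 0.43). Neither was called with limma (adjusted p = 0.0505 for Kcnq5), while edgeR (adjusted p = 0.034) and DESeq2 (0.0306) called Kcnq5 higher.

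Of the 13 inward rectifiers (Kcnj), 2 were lower in the N22-named pair and 1 was higher. Kcnj12, a strong inward rectifier, stood at 508, 397, 448 and 450.4 and at 215 and 194 (log2 difference -1.13, SE 0.11, adjusted p = 9.9e-05). Kcnj10, the channel through which astrocytes take up potassium, stood at 7334, 6749, 6933 and 6678 and at 5161 and 4497 (log2 difference -0.52, SE 0.063, adjusted p = 0.000344). Both genes were separated fully from the other 4 libraries. Summed over 5 astrocyte markers the pair stood at 19218 and 19907 against 27010 to 27441, with 3 of 5 called lower and none at 0, and their part in the Kcnj10 difference was not tested. Kcnj16, the partner of Kcnj10, was not called with limma on all libraries (log2 difference -0.22, 95% interval -0.42 to -0.030, adjusted p = 0.0815) but was called lower without Top2b-low 1 (adjusted p = 0.0419). Kcnj4, another strong inward rectifier, was higher, at 1187, 1312, 1354 and 1394 and at 1659.9 and 1872 (log2 difference 0.43, SE 0.066, adjusted p = 0.00137). The 4 G protein-gated genes, which act below opioid, GABA-B and other receptors, were not called, with log2 differences of -0.023 for Kcnj3, -0.13 for Kcnj5, 0.21 for Kcnj6 and 0.21 for Kcnj9.

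Of the 10 two-pore leak channels (Kcnk), 3 were lower and 2 were higher. Kcnk3, an acid-sensitive leak channel, stood at 847, 752, 785 and 819 and at 383 and 414 (log2 difference -1.005, SE 0.080, adjusted p = 2.43e-05), and its close relative Kcnk9 had a log2 difference of only -0.14 (95% interval -0.28 to -0.0014) and was not called. Kcnk10, of the mechanically gated TREK type, stood at 417, 369.7, 378 and 378 and at 189 and 183 (log2 difference -1.04, SE 0.095, adjusted p = 5.9e-05). Kcnk2 and Kcnk4, of the same TREK and TRAAK group, were higher instead. Kcnk4 stood at 186, 213, 196 and 262 and at 282 and 308 (log2 difference 0.47, SE 0.13, adjusted p = 0.024), and Kcnk2 at 1072, 994, 1098 and 1232 and at 1247 and 1339 (log2 difference 0.24, SE 0.073, adjusted p = 0.0348). The 3 genes of this group thus split between both directions, and the calls of Kcnk2 and Kcnk4 were less steady: neither was called without the minimum mean (adjusted p = 0.0775 and 0.0611), or without either N22-named library or wild type 1, and Kcnk2 not without Top2b-low 1 or wild type 2. Kcnk12 stood at 183, 184, 209 and 208 and at 110.2 and 124 (log2 difference -0.74, SE 0.11, adjusted p = 0.0013). Kcnk1, the highest Kcnk gene per kb, stood at 2071, 2128, 1789 and 1879 and at 1555 and 1835, with the Top2b-low value of the pair inside the range of the others, and was not called (log2 difference -0.22, SE 0.090, adjusted p = 0.101), though it was called lower without the N22-named Top2b-low library (adjusted p = 0.0175).

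The 7 calcium- and sodium-activated genes (Kcnma1, Kcnn1 to Kcnn3, Kcnt1, Kcnt2 and Kcnu1) were not called, with log2 differences from -0.16 for the sodium-activated Kcnt1 to 0.21 for Kcnu1, a low gene best known from sperm. Of the 12 accessory genes, 3 were higher and 1 was lower, and their summed count in the pair was 112% of that in the other 4. Kcnab2, which binds Kcna channels, stood at 8144, 8351, 8214 and 8311 and at 9296 and 9794, with no overlap (log2 difference 0.21, SE 0.054, adjusted p = 0.0176). Kcnip2, which binds Kcnd channels, stood at 1849, 1929, 2237 and 2005 and at 2661 and 2759 (log2 difference 0.44, SE 0.067, adjusted p = 0.00133). The other 3 Kcnip genes, which bind the same channels, were not called, with log2 differences of -0.096 for Kcnip1, 0.17 for Kcnip3 and -0.16 for Kcnip4. Kcnmb4, the neuronal beta subunit of Kcnma1, stood at 684, 669, 716 and 709 and at 839.9 and 997 (log2 difference 0.40, SE 0.072, adjusted p = 0.00334). Both N22-named values were above the other 4 for Kcnab2, Kcnip2 and Kcnmb4, and without the N22-named Top2b-low library the calls of Kcnab2 (adjusted p = 0.188) and Kcnmb4 (adjusted p = 0.0898) were lost. That of Kcnab2 was also lost in limma without the N22-named wild-type library (0.0741) and without wild type 1 (0.0534). Kcne2, a small subunit known from the choroid plexus and stomach, was lower, at 134, 105, 98.4 and 124 and at 74.0 and 75.1 (log2 difference -0.61, SE 0.17, adjusted p = 0.0215), and DESeq2 did not call it (adjusted p = 0.0509). In limma its call was lost without the N22-named wild-type (adjusted p = 0.189) or Top2b-low library (0.121), without wild type 1 (0.0613) or Top2b-low 2 (0.0502), and without the minimum mean (0.0531). The summed level of 3 choroid plexus markers was 12875 and 13759 in the pair against 10163 to 14042 in the other 4, with none called.

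**Figure D4:**
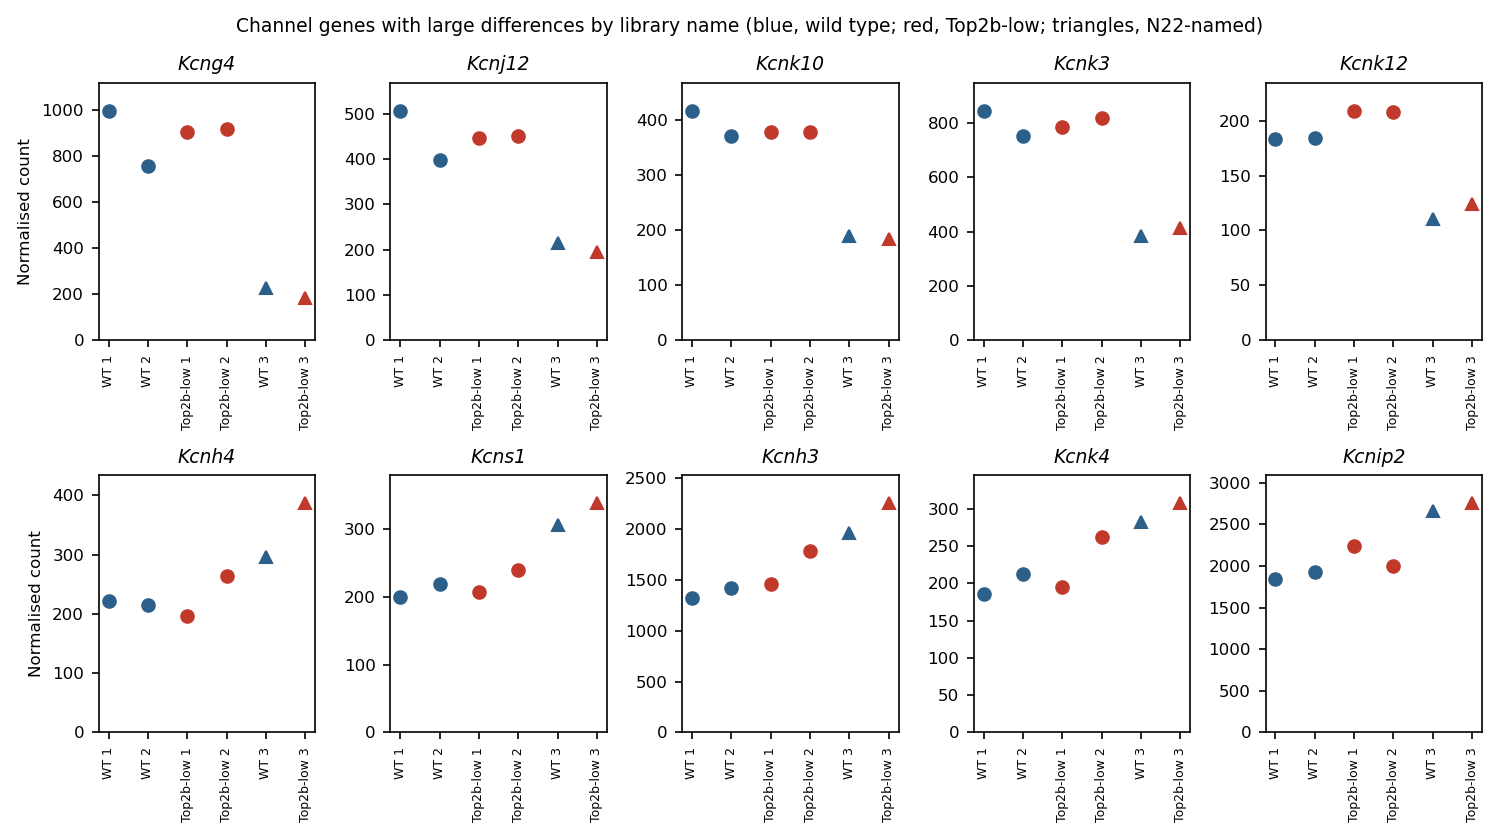
Normalised counts of Kcng4, Kcnj12, Kcnk10, Kcnk3 and Kcnk12 (top), among the called genes with the most negative log2 differences by library name, and of the 5 with the most positive (bottom), 1 point per library, with axes that start at 0. In the top row both triangles, the N22-named pair, lie below all 4 circles, and in the bottom row both lie above.

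Genes outside the name rule, listed as ones that assemble, anchor or regulate these channels, were counted as a list of 22, of which 20 were tested. The list also holds Cnih2, which is known for AMPA receptors and not as a partner of these channels. By library name 3 of the 20 were higher (all genes 11.3%), 6 were lower (all genes 16.7%) and 11 were not called, while 28% of all genes were called. Those with the smallest p were Cnih2, which escorts AMPA receptors, at 2173, 2307, 2352 and 2358 and at 3242 and 3004 (log2 difference 0.44, SE 0.064, adjusted p = 0.000998), the axonal scaffold Ank3 at 9708, 11565, 11015 and 11862 and at 8104 and 8305 (log2 difference -0.42, SE 0.075, adjusted p = 0.00298), and Abcc8, the sulphonylurea receptor that joins Kcnj11, at 819, 819.7, 788 and 917 and at 600.2 and 632 (log2 difference -0.44, SE 0.079, adjusted p = 0.00326). Next came Lingo1, a neuronal surface protein, at 3544, 3719.8, 3729 and 4692 and at 4616 and 5075 (log2 difference 0.31, SE 0.084, adjusted p = 0.0208), and Adam22, a receptor found with Kcna channels along axons, at 5642, 5824, 5715 and 6148 and at 4815 and 5400.3 (log2 difference -0.19, SE 0.060, adjusted p = 0.036). Pex5l, named here for its role of carrying HCN channels to dendrites and with its values in view, was higher in the pair, at 4051, 4358, 4199.8 and 4472 and at 4779.8 and 4926 (log2 difference 0.19, SE 0.059, adjusted p = 0.0401), while Hcn2 was lower.

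Between genotypes, no channel gene passed an adjusted p of 0.05 with limma, and neither did any of the 17391 genes (0%). The smallest adjusted p among the members was 0.99997. With an unadjusted p, 1 of 83 was under 0.05 (1.2%), against 1.51% of all genes, and edgeR and DESeq2 on whole reads gave 1 each with none called. With the N22 name in the model, 9 members were under 0.05 unadjusted (10.8%), against 5.81% of all genes, and none was called, nor with edgeR or DESeq2 and the same term. Kcnn3 had the smallest p of the members in limma with that term (unadjusted p = 0.00721, adjusted p = 0.648). Of all genes, edgeR with that term called 0 and DESeq2 14 (0.0805%). The 3 Top2b-low libraries did not overlap the 3 wild-type libraries for 6 members (7.23%), against 5.74% of all genes: Kcnab1, Kcng1, Kcng3 and Kcnh1 were higher (all genes 2.7%) and Kcnn3 and Kcnu1 lower (all genes 3.04%). An exact permutation test of 3 libraries against 3 cannot go below 0.1. The log2 difference was positive for 49 members (59.0%, against 49.4% of all genes) and negative for 34, with a median of 0.027 over the members and -0.0021 over all genes. The difference was under 0.1 in size for 46 of the 83, and only Kcnj5 exceeded 0.5.

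Kcnn3, a small-conductance calcium-activated channel that carries part of the afterhyperpolarisation, had the smallest p. It stood at 811, 887 and 773 in wild type 1, 2 and 3 and at 714, 691 and 693 in Top2b-low 1, 2 and 3, with every Top2b-low value below every wild-type value (limma log2 difference -0.23, SE 0.087, unadjusted p = 0.0287, adjusted p = 0.99997). The difference was -0.16 within the N22-named pair and -0.27 in the other 4 libraries. The other 2 Kcnn genes had differences of -0.073 for Kcnn1 (95% interval -0.35 to 0.20) and -0.029 for Kcnn2 (-0.30 to 0.25). Kcnj5, a G protein-gated subunit of the heart and of few brain neurons, stood at 53.4, 50.1 and 59.7 and at 52.9, 26.7 and 27.2, with Top2b-low 1 among the wild-type values (limma log2 difference -0.67, SE 0.30, unadjusted p = 0.0563). Summed over 5 hypothalamus markers, wild type stood at 602, 595 and 849 and Top2b-low at 457, 64.3 and 74.0. Summed over 3 midbrain dopaminergic markers, the values were 1226, 1030 and 1083 and 993, 804 and 253. No marker list was higher in Top2b-low without overlap. The part of tissue makeup in the Kcnj5 difference was not tested. Kcna5 stood at 96.0, 155 and 169 and at 112, 99.5 and 108, with wild type 1 below all Top2b-low values (log2 difference -0.35, SE 0.22, unadjusted p = 0.155 with limma). Kcnh2 stood at 1094, 995 and 923 and at 1003, 902 and 731 (log2 difference -0.20, SE 0.13, unadjusted p = 0.171 with limma), and Kcnj16 at 726, 659 and 558 and at 553, 624 and 533 (log2 difference -0.18, SE 0.12, unadjusted p = 0.185 with limma). The groups overlapped for these 4 genes.

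On the higher side, Kcnh1 stood at 1815, 1864 and 1723 in wild type and at 1918, 2157 and 1929.9 in Top2b-low, without overlap (limma log2 difference 0.15, SE 0.081, unadjusted p = 0.101). The difference was 0.16 in the N22-named pair and 0.15 outside it. Kcng1 stood at 404, 474 and 465 and at 502, 511 and 493, also without overlap (limma log2 difference 0.17, SE 0.098, unadjusted p = 0.126). Kcnq5, an M-current subunit, stood at 1402, 1609 and 1707 and at 1594, 1853 and 2122 (limma log2 difference 0.23, SE 0.13, unadjusted p = 0.104). In Kcnq5 each Top2b-low library was above the wild-type library of the same number, while the groups overlapped. Differences were 0.21 for Kcnq1 and 0.12 for Kcnq3, neither of them called. Kcnv1 stood at 1229, 1414 and 1550.4 and at 1436, 1516 and 2184, where the N22-named Top2b-low library was far above the rest (limma log2 difference 0.27, SE 0.17, unadjusted p = 0.151), and the difference was 0.49 in the pair and 0.16 outside.

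**Figure D5:**
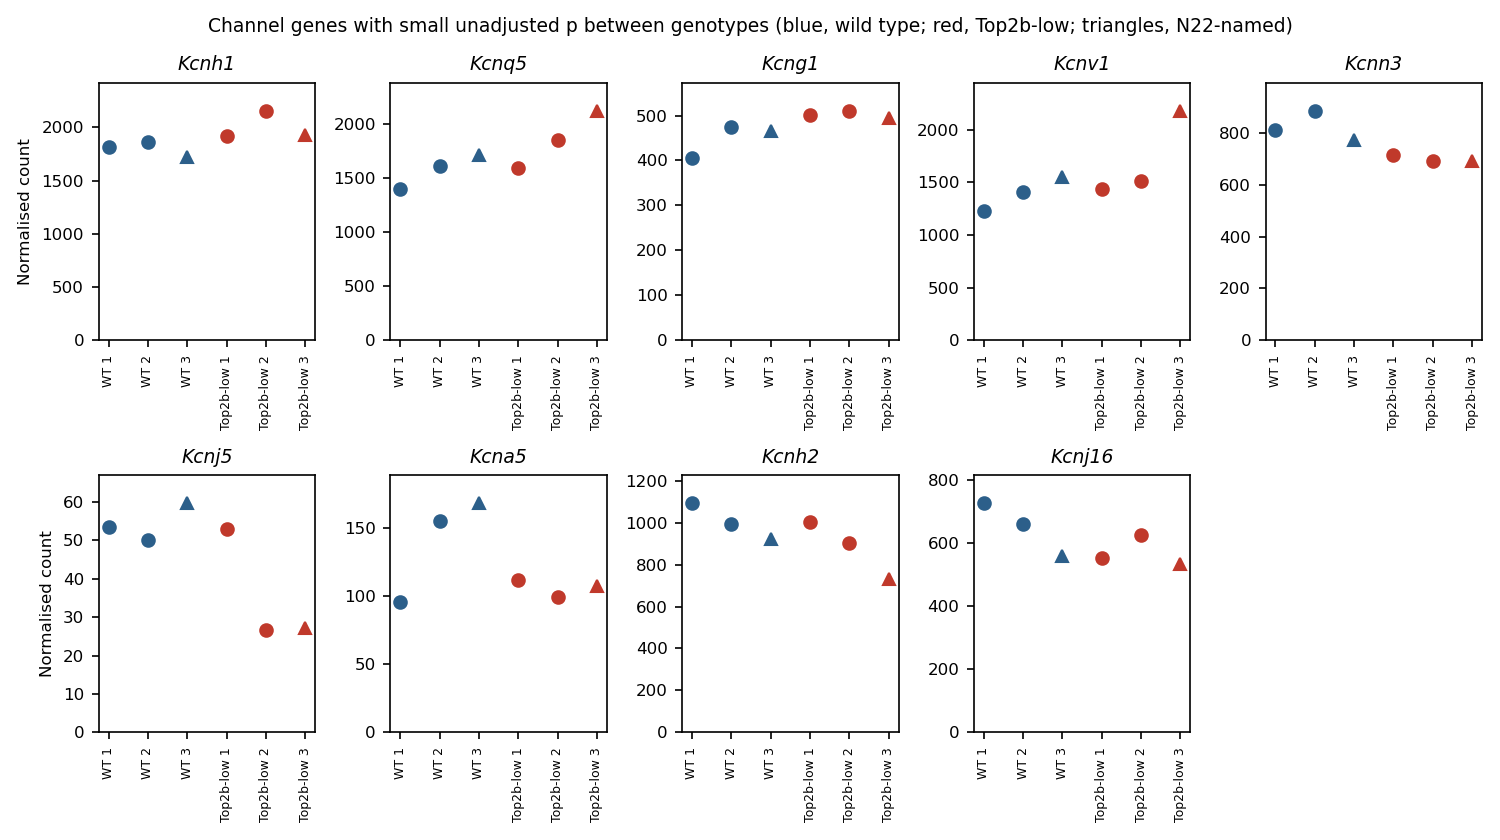
Normalised counts of 9 channel genes among those with the smallest unadjusted limma p, higher (Kcnh1, Kcnq5, Kcng1 and Kcnv1) or lower (the remaining 5), 1 point per library, with axes that start at 0. Kcnh1, Kcng1 and Kcnn3 show no overlap between blue wild-type and red Top2b-low points, the other 6 do overlap, and none of the 9 passed the adjusted threshold.

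Hcn2, Hcn3 and Hcn4 did not pass the genotype test. The log2 difference was -0.093 for Hcn2 (95% interval -0.42 to 0.23), for Hcn3 -0.12 (-0.43 to 0.19) and for Hcn4 -0.25 (-0.85 to 0.34). Intervals were wide for several genes that differed by library name: Kcng4, at -0.056, had an interval of -1.80 to 1.69, and Kcnj12, at -0.050, one of -1.01 to 0.91. Within the 4 libraries outside N22 the differences were 0.068 for Kcng4, 0.014 for Kcnc1, -0.037 for Hcn2, 0.046 for Hcn3 and -0.13 for Hcn4. Summed over all 83 genes, wild-type libraries held 131031 ± 8324 normalised counts and Top2b-low libraries 135217 ± 5584 (SD, n = 3). By replicate number the sums were 133373 and 135608, 137933 and 140595.0, and 121787 and 129447 in wild type and Top2b-low. Top2b-low held the larger sum at each number, but the groups overlapped and wild type 2 was above Top2b-low 1. Numbers 1 and 2 are not shown to be pairs, so the order by number carries little weight. The sum over all members was not tested. The 20 tested partner genes held no genotype call, with 15 positive and 5 negative differences and a median of 0.036. Over all genes 49.4% of the differences were positive, with a median of -0.0021.

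A test of the difference between the genotype effect in the N22-named pair and in the other 4 libraries called no channel gene, against 0.023% of all genes, and 5 members were under 0.05 unadjusted (6.02%, against 3.59%). The same test with edgeR and DESeq2 called no channel gene either (all genes 0.0058% and 0.132%), with 6 (7.23%, against 4.4% of all genes) and 2 members (2.41%, against 1.29%) under 0.05 unadjusted. The genotype difference had the same sign in the pair and in the other 4 libraries for 46 of 83 members (55.4%), against 51.1% of all genes.

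Topoisomerases are known for their role in the transcription of long genes, and the members were also divided by the span of the gene in GENCODE vM21. The median span was 41.8 kb over the members and 22.5 kb over all genes with a span. Of the 83, 24 spanned more than 100 kb (28.9%), against 14.4% of all genes. Their genotype difference was positive for 17 of 24 (70.8%) with a median of 0.050, against 58.1% and 0.019 for all genes of that span. For the 59 shorter members it was positive for 32 (54.2%) with a median of 0.0082, against 47.3% and -0.0073. By library name, 5 of the 24 long members (20.8%) and 24 of the 59 shorter ones (40.7%) were called, against 34.3% and 27.5% of all genes. These counts are descriptions of single genes of which none passed the genotype test.

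Promoters of the channel genes were compared with all promoters of the RefSeq table (GRCm38.p6, 250 bases before each start), in which 58 members had 82 promoters. The GC box GGGCGG, searched on both strands, was present in 39 of 82 (47.6%) and in 32.7% of all 32851 promoters. It was present in 9 of 16 promoters (56.25%) of 14 genes lower in the N22-named pair and in 9 of 14 promoters (64.3%) of 9 genes higher. Some genes thus count with several promoters. The TATA box TATAAA was present in 3.66% of channel promoters and 12.4% of all, and the CRE half-site TGACG in 15.9% and 17.8%, both strands searched. The full CRE, TGACGTCA, which contains the half-site, was in none of the 82 and in 1.55% of all. The median GC content was 59.6% over channel promoters and 52.4% over all. The 2 promoters below belong to the genes with the most negative and the most positive log2 difference by library name, Kcng4 (chr8:119635681-119635930, minus strand) and Kcnh4 (chr11:100759779-100760028, minus strand). They are written 5′ to 3′ on the gene's strand, with GC boxes in capitals. The Kcng4 window held 0 and the Kcnh4 window 1.
Kcng4: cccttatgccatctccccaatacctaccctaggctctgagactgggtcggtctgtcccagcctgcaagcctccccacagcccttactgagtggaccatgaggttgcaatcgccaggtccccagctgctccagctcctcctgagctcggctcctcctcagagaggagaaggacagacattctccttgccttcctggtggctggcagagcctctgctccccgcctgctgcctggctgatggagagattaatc
Kcnh4: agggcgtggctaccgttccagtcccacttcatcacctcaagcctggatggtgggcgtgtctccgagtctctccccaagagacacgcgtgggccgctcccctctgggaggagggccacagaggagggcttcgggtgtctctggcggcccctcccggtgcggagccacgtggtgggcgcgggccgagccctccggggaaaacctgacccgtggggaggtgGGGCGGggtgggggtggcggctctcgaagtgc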

How the data were processed

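The values are a signal: counts that the authors had normalised before they deposited them, from reads quantified with RSEM on mm39 per the submitters' processing notes. The version of that tool, the aligner, the annotation and any use of strand were not given in the sources used here. Every value was a whole multiple of its library's smallest value (100%, tolerance 1e-06), so whole reads were recovered for count tests. Symbols, chromosomes, spans and coding sequences came from GENCODE vM21 (GRCm38), which matched 51498 identifiers, and promoters from RefSeq with their own build.

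Groups came from the genotype labels and replicate numbers from the titles. The series text counts 3 mice per genotype, so libraries were taken as separate animals. Replicates of a genotype differed by more than sampling noise (chi-square per degree of freedom 3.01 to 22.0). Differences are on log2(normalised count + 1), which understates the change of low genes, for 17391 genes with a mean of at least 10. Tests were two-sided, with limma 3.58.1 (trended empirical Bayes, R 4.3.3), and p-values were adjusted by Benjamini-Hochberg across those genes at a threshold of 0.05. The genotype model held genotype alone, the library-name model genotype and N22 name, and the third model their product. Alternatives were edgeR 4.0.16 and DESeq2 1.42.0 on whole reads, other scalings, minimums and pseudocounts, an N22 term, a replicate block and leaving out each library. The deviations of same-numbered libraries correlated at 0.33, 0.35 and 0.68. Numbers 1 and 2 also correlated across each other (0.24 and 0.37), so only number 3, the N22-named pair, stood apart. The replicate block took the titles' numbers as pairs, which the values do not show for numbers 1 and 2. Calculations were tested on simulated data.

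Members, partner and marker lists were chosen with earlier results of these data known. Named genes were all Hcn genes, up to 10 called each way by library name, the 5 with the smallest p each way by genotype, the highest per kb in subfamilies of 3 or more, those next to the minimum mean, and partners by smallest p. Some genes that this rule names are not reported here.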

Additional observations from a re-analysis of the deposited data

How the results depend on the processing

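The genotype comparison called 0 channel genes under every alternative run, including the replicate block. Of all genes, DESeq2 called 14 with the N22 term (0.0805%) and 15 with the replicate block (0.0998%). Without Top2b-low 1, limma called 1 of all genes. With the block (pairing by replicate number) 12 members were under 0.05 unadjusted (14.5%, against 6.72% of all genes) and the smallest adjusted p was 0.473 with limma, against 1 member (1.2%, against 1.51% of all genes) and 0.99997 without it, and the block changed no call of a channel gene. By library name, the number called higher moved from 11 to 18 with quantile normalisation. Leaving out 1 library gave 3 to 13 higher and 12 to 19 lower. Under settings that kept all libraries, 217 of the 224 values of named genes by library name kept direction and side of the threshold, 3 gained a call and 4 lost it. Without 1 library, 137 of 168 did, 25 lost a call, 1 gained one and 5 turned direction. Those that turned belong to Hcn3, which ran from -0.25 to 0.25, and Kcnk1, from -0.43 to 0.0012. By genotype, Hcn3 turned to 0.046 in the 4 libraries outside N22. Without 1 library, Hcn2 ran from -0.21 to 0.042 and Hcn4 from -0.45 to 0.022. The cause was not tested. No scaling moved the median of all genes by more than 0.1. Depth limits the lowest members, where 3 reads reach 3.76 normalised counts. The design has 2 N22-named libraries, 1 per genotype.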

Other observations

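The 13 channel genes under the minimum mean were at most 3.79 normalised counts on average, and 3 of them, Kcna7, Kcnj1 and Kcnk16, had no reads in any of the 6 libraries. They include subunits known from kidney, pancreas and muscle. Annotated antisense genes of members were also in the table. Kcnmb4os2, antisense to the beta subunit gene Kcnmb4, stood at 49.8, 68.9, 52.9 and 38.8 normalised counts in wild type 1 and 2 and Top2b-low 1 and 2, and at 86.8 and 105 in the N22-named wild-type and Top2b-low libraries, and Kcnmb4os1 at 12.1, 10.0, 9.84 and 6.07 and at 19.2 and 45.6. The N22-named values of both were above the other 4, as were those of Kcnmb4. The use of strand is not given and overlap of exons was not checked. Whether the reads of a gene include some of its antisense partner is therefore not known. Kcnd3os stood at 36.4, 36.3, 43.1 and 42.5 and at 46.2 and 43.2. The antisense genes were picked with their values in view.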
